A study of Homo sapiens with 18 samples.

Results

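HAP1 cells carrying an RB1CC1 knockout label (RB1CC1KO, also written FIP200KO) were compared with the parental line (WT) after 6 h without amino acids and serum in EBSS, Earle's salt solution. HAP1 is a near-haploid human cell line that grows attached to plastic and stems from a chronic myeloid leukaemia line. EBSS contains glucose, so sugar was present in both groups. The comparison used 3 RB1CC1KO EBSS and 3 WT EBSS libraries, 6 of 18 in the series, chosen by sample title alone. Polyadenylated RNA was sequenced, and no measured value entered the choice of libraries. As further points, 3 ATG7KO EBSS libraries, 3 RB1CC1KO libraries in full medium with 10% serum and 3 WT libraries in the same medium were used. Each genotype is 1 line, and the labels do not say whether a knockout line is a clone or how the knockout was made. What the knockout did and what else distinguishes the 2 lines cannot be told apart. Replicates were described as independent biological ones.

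RB1CC1, also called FIP200, is the large scaffold of the ULK1 kinase complex, which receives the signal of amino acid loss from mTORC1 and AMPK and starts the autophagosome. Autophagy then returns amino acids, lipids and iron from digested cytoplasm through the lysosome. ATG7 acts later, as the enzyme that activates the ubiquitin-like ATG12 and ATG8 proteins. RB1CC1 also has roles outside autophagy, which ATG7 does not share. Starved cells further respond through ATF4, which raises amino acid transport and synthesis, through FOXO factors, and through SREBP2, which raises cholesterol synthesis and uptake when membrane cholesterol is low.

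Library depth was 15508772 to 26005942 reads in genes for RB1CC1KO EBSS and 14765145 to 16858058 for WT EBSS. One ATG7KO EBSS library had 4892072. Reads of the mitochondrial genome made up 1.41 to 2.20% in RB1CC1KO EBSS and 2.00 to 2.36% in WT EBSS. By chromosome, the median log2 fold change of RB1CC1KO EBSS over WT EBSS ran from -0.03 on chromosome 15 to 0.04 on chromosome 21. In bulk RNA of this kind, fewer cells of a type and less RNA per cell cannot be told apart.

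The targeted gene did not check the label. RB1CC1 had 251, 280.0 and 259.8 CPM (read counts scaled to library depth by the TMM method) in the RB1CC1KO EBSS libraries, against 225, 231 and 209.8 CPM in WT EBSS. The groups did not overlap, and RB1CC1 was higher in the RB1CC1KO-labelled line, by a log2 fold change of 0.25 ± 0.07 (SE, adjusted p = 0.00472). In full medium the gap was larger, with 147, 171 and 152 CPM in RB1CC1KO and 94.2, 106 and 115 CPM in WT (log2 fold change 0.58, adjusted p = 8.3e-08). Counts per gene do not show which exons the reads cover, so the genotype rests on the label. ATG7 had 17.9, 16.6 and 17.1 CPM in RB1CC1KO EBSS and 16.0, 17.8 and 14.5 CPM in WT EBSS, which overlap (0.09 ± 0.10, adjusted p = 0.527). The ATG7KO EBSS libraries had 10.98, 10.2 and 9.97 CPM of ATG7, below all 6.

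**Figure D1:**
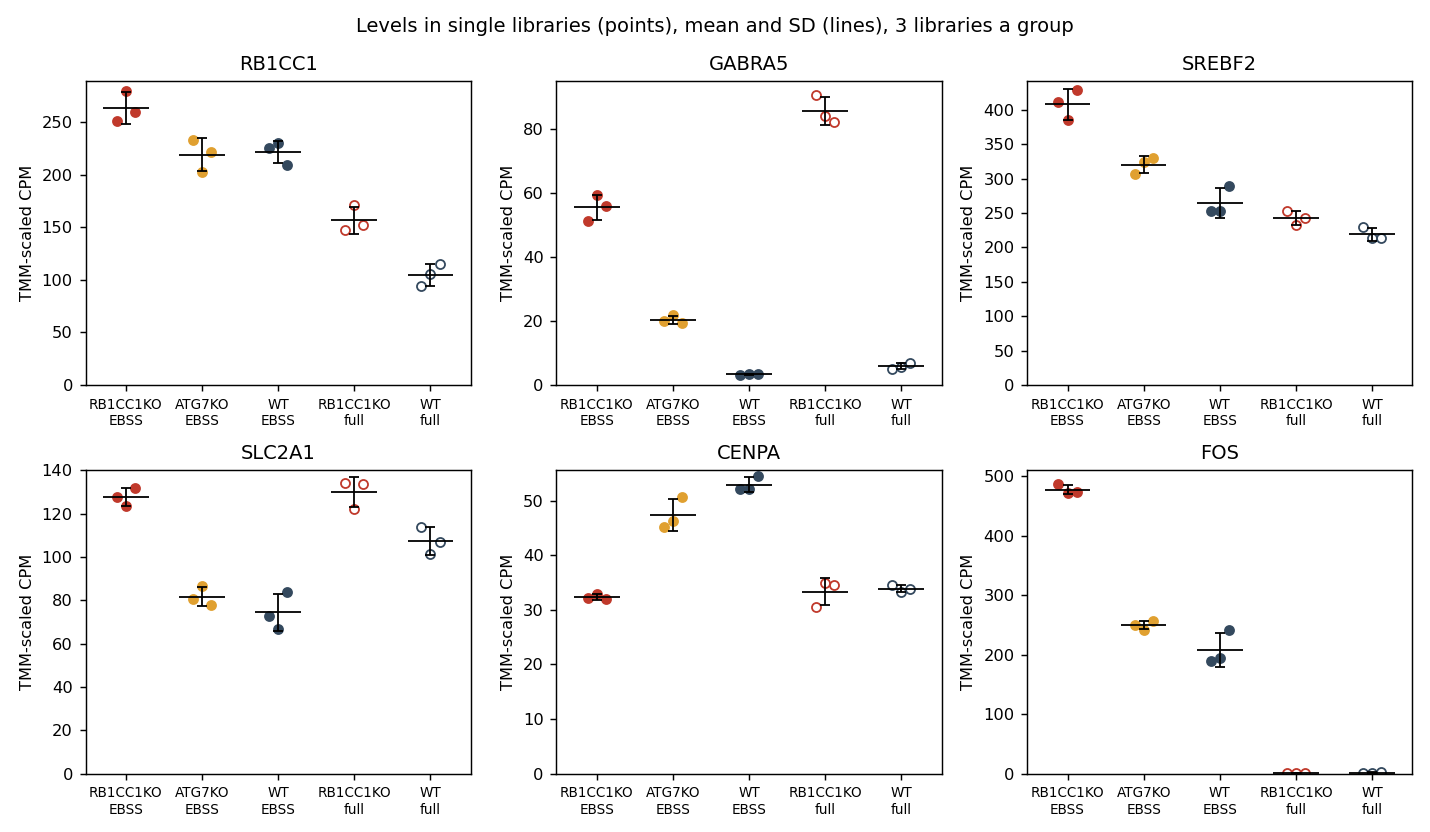
Scaled CPM of RB1CC1, GABRA5, SREBF2, SLC2A1, CENPA and FOS by group, with filled points for EBSS libraries and open points for full medium. Horizontal lines are means and error bars SDs over 3 libraries. GABRA5 is high in RB1CC1KO in both media, whereas CENPA is lower in RB1CC1KO than in WT in EBSS and overlaps in full medium (difference between media -0.69 on the log2 scale, adjusted p = 4.72e-05).

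Under starvation the RB1CC1KO-labelled line had higher RNA levels of cholesterol synthesis, glucose uptake and DNA replication genes and of FOS and JUN, and lower levels of mitotic genes, Frizzled receptors and the autophagy receptor RETREG1. The difference between media was called higher for 2 of 25 cholesterol, 3 of 24 glycolysis and 7 of 30 replication genes, against 2.68% of all genes. It was called lower for 5 of 30 mitotic genes, against 5.47%. RETREG1 was also lower in full medium (-1.53), and its difference between media was not called (adjusted p = 0.282). The Frizzled receptors named below have 1 or 2 exons, which bears on a pattern given further on. Of the largest changes named below, 10 in each direction, all but PLEKHA6 were called the same way in full medium. Of 15179 genes tested, 4803 passed an adjusted p of 0.05, which is 31.6% of them. Higher calls numbered 2240 (14.8%) and lower calls 2563 (16.9%). Below, a gene that rose or fell was higher or lower in RB1CC1KO EBSS than in WT EBSS, unless another comparison is named. These words do not describe a change from full medium to EBSS. At least 2-fold changes were fewer, 287 higher and 580 lower. The CPM of the 2 groups did not overlap for 6280 genes (41.4%). With so high a background, a single called gene or a list near these shares says little, and each list is read against them.

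GABRA5, a subunit of the GABA type A chloride channel, had the largest rise among the genes named by level and change. It had 51.3, 59.2 and 56.0 CPM in RB1CC1KO EBSS and 3.12, 3.32 and 3.46 CPM in WT EBSS (log2 fold change 4.07 ± 0.11, adjusted p = 5.24e-26). Its level was also high in RB1CC1KO in full medium, at 90.6, 84.2 and 82.2 CPM, against 5.04, 5.70 and 6.93 CPM in WT. The ATG7KO EBSS libraries held an intermediate 19.9, 21.8 and 19.3 CPM. The difference between the media was 0.20 ± 0.16 (adjusted p = 0.512), so the line difference was present with and without nutrients. Of 27 GABA and glutamate receptor genes listed, 9 were measured and 10 had 0 reads. Of the 9 measured, 5 were higher and 0 lower (0 at an unadjusted p of 0.05, and 0 with DESeq2). GABRG3, another subunit gene, gave 3.19 ± 0.54. It stayed near 1 CPM, with 0.771, 1.14 and 1.27 CPM in RB1CC1KO EBSS and 0.0709, 0.125 and 0.128 CPM in WT EBSS. With 58 reads in RB1CC1KO EBSS and 5 in WT EBSS, GABRG3 could hardly have been called lower. Its direction is thus no further support.

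The other genes with the largest rises included ALDH1A2, which makes retinoic acid from retinaldehyde. It had 41.3, 43.8 and 43.5 CPM in RB1CC1KO EBSS, against 4.97, 4.32 and 4.55 CPM in WT EBSS (3.22 ± 0.11, adjusted p = 2.1e-23). ATG7KO EBSS libraries, at 1.74, 1.97 and 2.12 CPM, lay below WT. STRA6, which takes retinol up, was higher too, by 0.95 ± 0.13, and the receptor RARG was lower (-0.61 ± 0.10). The list of retinoic acid genes gave 4 higher and 1 lower of 13. NALF1 (3.32), TCEAL9 (3.21), DLK1 (3.10), a non-canonical Notch ligand, ZNF329 (2.87), ADGRG2 (2.67), ECEL1 (2.58) and RAB36 (2.48) were all called higher in full medium as well. TCEAL9 was not particular to RB1CC1KO, with a difference from ATG7KO EBSS of 0.01 (adjusted p = 0.961).

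PLEKHA6, an adaptor at cell junctions, was the exception among them. It had 5.57, 7.37 and 5.91 CPM in RB1CC1KO EBSS, against 0.709, 0.438 and 0.961 CPM in WT EBSS (3.16 ± 0.30, adjusted p = 2.78e-10). In full medium it had 0.885, 0.394 and 0.425 CPM in RB1CC1KO and 0.292, 0.645 and 0.236 CPM in WT, and the groups overlapped. The starved rise exceeded the fed one by 2.75 ± 0.60 (adjusted p = 0.00294).

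At the other end stood genes with almost no read in RB1CC1KO. COL11A1, a fibrillar collagen chain, had 0.119, 0.0847 and 0.141 CPM in RB1CC1KO EBSS and 96.4, 88.9 and 91.4 CPM in WT EBSS (-9.61 ± 0.19). The ATG7KO EBSS libraries were also low, at 0.129, 0.136 and 0.424 CPM. BMP7, a bone morphogenetic protein, had 0.0593, 0.0423 and 0.0703 CPM in RB1CC1KO EBSS and 34.8, 34.2 and 36.3 CPM in WT EBSS, with 1 read in each RB1CC1KO library. WT was 639-fold higher, with a 95% counting interval from 218 to 3104. ATG7KO EBSS held 350 reads of BMP7, against 1602 in WT EBSS. NT5C3A, a pyrimidine nucleotidase, fell to 0.119, 0.212 and 0.0703 CPM in RB1CC1KO EBSS, against 49.9, 48.7 and 40.2 CPM in WT EBSS, while ATG7KO EBSS held 44.1, 35.8 and 36.5 CPM.

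FBXO17, an F-box protein, had 0 reads in all 3 RB1CC1KO EBSS libraries and 11.3, 14.6 and 11.98 CPM in WT EBSS, so WT was at least 232-fold higher (3 counts over the group as the floor). It was also at 0 in the 3 ATG7KO EBSS libraries. CHMP4C, an ESCRT subunit of the final step of cell division, had 0 reads in RB1CC1KO EBSS and was at least 75.4-fold higher in WT EBSS. It had 0 reads in ATG7KO EBSS as well. LGALS8, a galectin that marks damaged lysosomes and endosomes for autophagy, was lower by a log2 fold change of -6.24 ± 0.18, or -6.86 without RB1CC1KO EBSS replicate 2. THSD7B (-6.44), the adhesion molecule CADM1 (-5.65) and FRMD4A (-5.31) completed the largest falls. CGREF1 had a single read over the 3 RB1CC1KO EBSS libraries, and its ratio of 289 (WT over RB1CC1KO) has a counting interval from 51.3 to 11444. LGALS8, CADM1, FRMD4A and CGREF1 were also low in ATG7KO EBSS, with 123, 354, 120 and 12 reads. WT EBSS had 2098, 1450, 346 and 241 reads of them. THSD7B went the other way, with 582 reads in ATG7KO EBSS and 321 in WT EBSS. These reads are not scaled to depth, and ATG7KO EBSS held a shallow library. RB1CC1KO EBSS was called below ATG7KO EBSS for LGALS8 (-2.54), CADM1 (-4.00), FRMD4A (-4.19) and CGREF1 (-3.74). All 10 largest falls were called lower in full medium too.

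**Figure D2:**
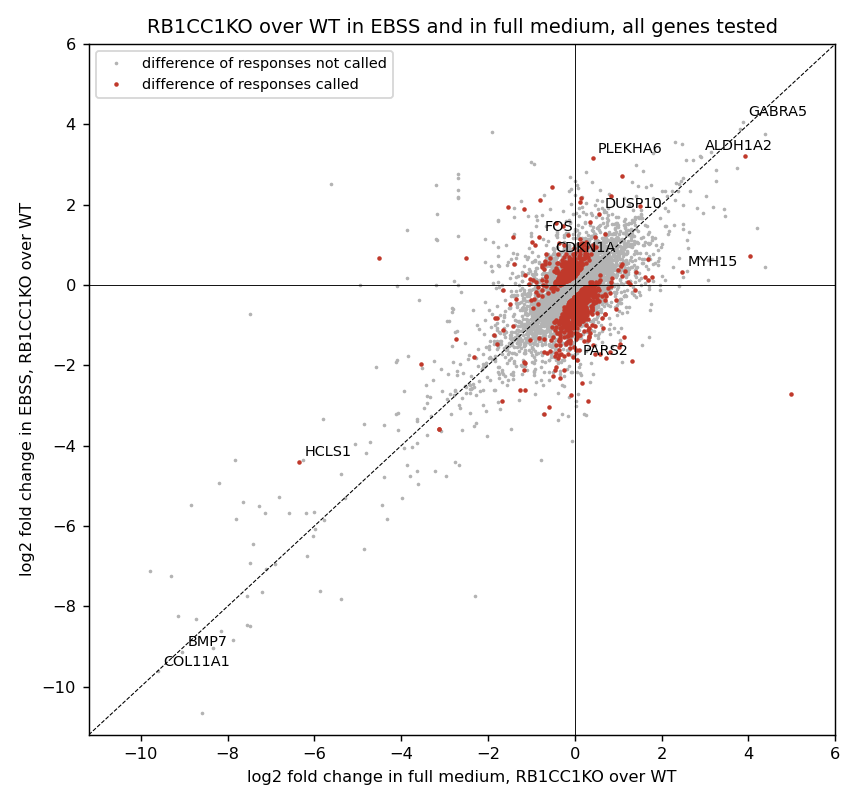
Log2 fold changes of RB1CC1KO over WT in full medium (horizontal) and in EBSS (vertical), 1 point per gene tested, with the dashed line at equality. Red points are genes whose starved and fed differences differed by the test of the difference, and most of the largest changes lie along the dashed line while FOS, PLEKHA6 and PARS2 lie off it.

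In full medium, where the 6 libraries are others of the same lines, 2606 genes were called between RB1CC1KO and WT (17.2%), 1260 higher (8.3%) and 1346 lower (8.87%). The higher calls numbered 674 to 835 without any one of WT full medium replicates 1 and 3 or RB1CC1KO full medium replicates 2 and 3. Of the genes higher in EBSS, 669 were also higher in full medium, 29.9% of the starved and 53.1% of the fed calls. For lower genes the overlap was 884, or 34.5% of the starved and 65.7% of the fed calls. Among changes of at least 2-fold in EBSS, 130 of 287 higher and 353 of 580 lower genes were called the same way in full medium. The log2 fold changes in the 2 media had a Pearson r of 0.690 across genes, which are not independent replicates, and the lines themselves are shared. The starved and fed differences differed for 1238 genes (8.16%), higher in EBSS relative to full medium for 407 (2.68%) and lower for 831 (5.47%). The higher calls ran from 226 without RB1CC1KO EBSS replicate 3 to 687 without RB1CC1KO EBSS replicate 2, and the lower ones from 497 without WT EBSS replicate 1 to 901 without RB1CC1KO EBSS replicate 2. DESeq2 gave 563 higher and 758 lower.

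**Figure D3:**
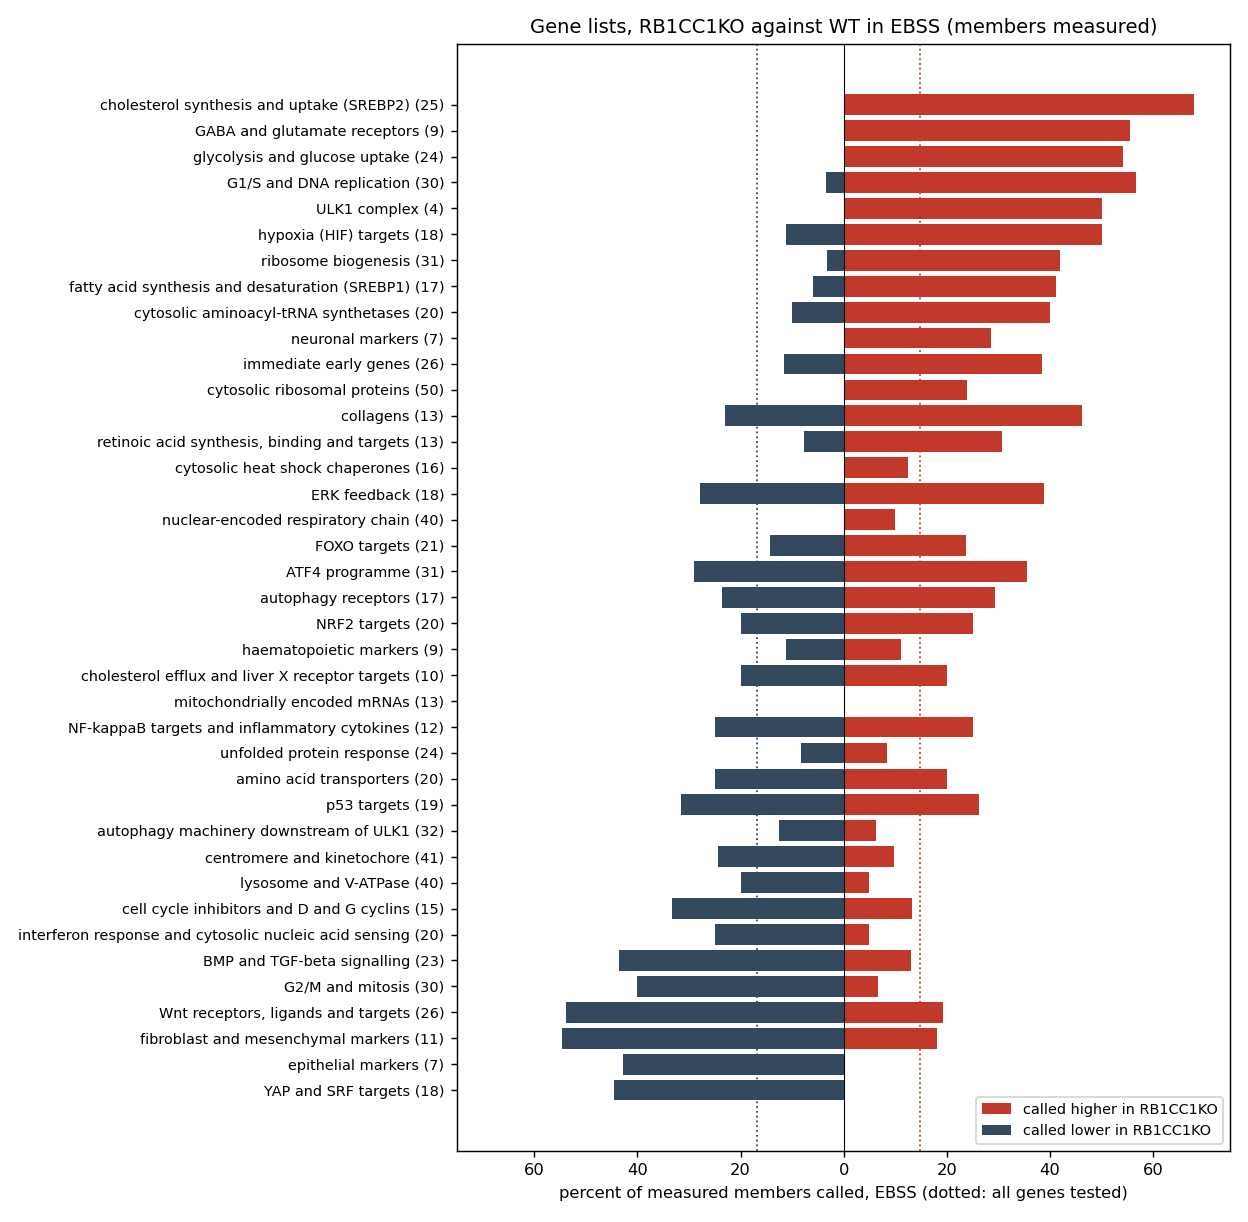
Share of the measured members of each gene list called higher (right, red) or lower (left, dark) in RB1CC1KO EBSS against WT EBSS, with the number measured in brackets. Dotted lines are the shares over all genes tested, 14.8% higher and 16.9% lower. Cholesterol synthesis stands at the top with 17 of 25 higher, and the lower calls dominate for Wnt, mesenchymal, epithelial and mitotic genes.

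Genes of cholesterol synthesis and uptake were higher in the starved RB1CC1KO-labelled line. Of 25 measured, 17 were higher and 0 lower in edgeR's test (0 at an unadjusted p of 0.05, and 0 with DESeq2). The median log2 fold change was 0.24 against 0.00 over all genes tested. Their summed level was 2451 to 2558 CPM in RB1CC1KO EBSS and 1930.5 to 1995 CPM in WT EBSS. Fed sums were higher, at 2609.5 to 2658 CPM in RB1CC1KO and 2317 to 2375 CPM in WT. The list thus stood lower in EBSS than in full medium in both lines. In full medium 7 of the 25 genes were called, all higher in RB1CC1KO, with a median of 0.13. Leaving out single libraries gave between 14 and 17 higher.

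SREBF2 encodes SREBP2, the membrane-bound factor that is cut and enters the nucleus when sterols are low. It had 411, 385 and 429.6 CPM in RB1CC1KO EBSS and 253, 252 and 289 CPM in WT EBSS (0.62 ± 0.06, adjusted p = 3.78e-10). In full medium it had 253, 232 and 243 CPM in RB1CC1KO and 230.1, 214 and 214 CPM in WT. The difference between media was 0.48 ± 0.09 (adjusted p = 0.000302). HMGCS1, which condenses the first committed units of the pathway, had 153, 162 and 138 CPM in RB1CC1KO EBSS and 95.4, 99.9 and 92.4 CPM in WT EBSS (0.66 ± 0.07). It was also higher in full medium (0.45), and the difference between media was not called (0.21, adjusted p = 0.179). FDFT1, squalene synthase, rose by 0.40 ± 0.06.

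The 150 bases before the transcription start are shown for SREBF2, HMGCS1, SLC2A1 and CENPA, the promoters of genes on which the results below and above turn. They come from RefSeq on build GRCh38.p14, at chr22:41832955-41833104 (plus strand), chr5:43313413-43313562 (minus), chr1:42958869-42959018 (minus) and chr2:26785906-26786055 (plus), read 5′ to 3′ on the gene's strand. Capitals mark exact matches of the CCAAT box, on either strand, in all 4 (printed as CCAAT or its reverse ATTGG), of the sterol element CACCCCAC in SREBF2 and of the cell cycle element TTTGAA in CENPA.
SREBF2: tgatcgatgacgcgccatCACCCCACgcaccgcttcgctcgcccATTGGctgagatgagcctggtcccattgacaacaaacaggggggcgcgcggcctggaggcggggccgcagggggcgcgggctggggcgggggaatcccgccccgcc
HMGCS1: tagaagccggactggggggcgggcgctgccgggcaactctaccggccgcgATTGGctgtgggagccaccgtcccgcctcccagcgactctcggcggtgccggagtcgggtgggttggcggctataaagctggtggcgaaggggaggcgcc
SLC2A1: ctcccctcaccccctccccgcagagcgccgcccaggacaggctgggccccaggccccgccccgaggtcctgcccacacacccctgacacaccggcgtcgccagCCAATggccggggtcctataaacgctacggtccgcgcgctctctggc
CENPA: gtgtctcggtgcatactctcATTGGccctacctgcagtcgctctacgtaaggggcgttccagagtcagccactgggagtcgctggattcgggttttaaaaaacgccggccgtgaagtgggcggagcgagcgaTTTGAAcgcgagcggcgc

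In SREBF2 the sterol element starts 132 bases and the reversed CCAAT box 106 bases before the start. In CENPA the cell cycle element lies 18 bases before the start. Over the 250 bases before each start, CCAAT or its reverse was in 79.2% of the 24 promoters of 19 cholesterol genes with an entry, in 59.0% of 39 centromere promoters and in 22.9% of 48 glycolysis promoters, against 32.0% of all 35116 promoters. The exact sterol element was in 4.17% of them, which is 1 promoter, against 2.43% of all. The hypoxia element (ACGTG or GCGTG) was in 54.2% of 48 promoters of 22 glycolysis genes, and in 87.5% of the cholesterol promoters, against 43.2% of all. The cell cycle element (TTTGAA or TTCGAA) was in 20.5% of 39 centromere promoters, against 14.3% of all. Genes with several starts count more than once, and a match of letters does not show binding.

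Fatty acid genes under SREBP1 moved less uniformly, with 7 higher and 1 lower of 17. SREBF1 itself had 119, 95.1 and 134 CPM in RB1CC1KO EBSS and 72.8, 66.8 and 85.8 CPM in WT EBSS (0.62 ± 0.11, adjusted p = 0.000152), with no overlap. The stearoyl-CoA desaturase SCD rose by 0.39 ± 0.05, ACSL3, which activates fatty acids, by 0.50 ± 0.07, and the phosphatidate phosphatase LPIN1 by 0.35 ± 0.06. In full medium SREBF1 gave -0.02 and SCD 0.08, and neither was called. Genes of cholesterol efflux split, with MYLIP (0.49) and NR1H3 (0.59) higher, and NPC1 (-0.36) and NR1H2 (-0.60) lower, of 10. NPC1 carries cholesterol out of lysosomes, and had 56.7, 60.8 and 62.3 CPM in RB1CC1KO EBSS and 75.5, 77.3 and 78.2 CPM in WT EBSS.

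**Figure D4:**
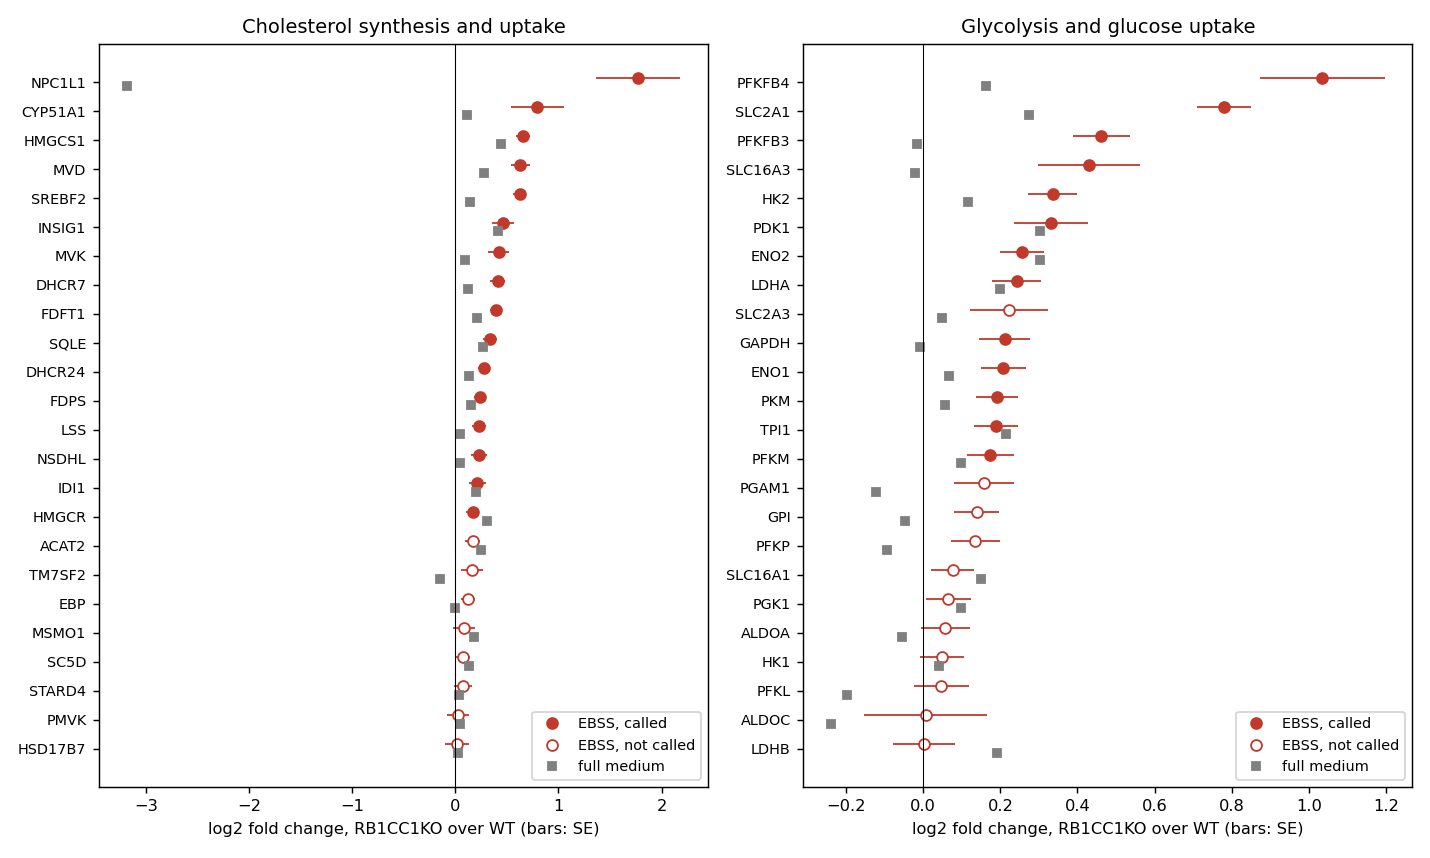
Log2 fold change of RB1CC1KO over WT for genes of cholesterol synthesis and uptake (left, 24 shown) and of glycolysis (right), with circles for EBSS (filled when called, bars SE) and grey squares for full medium. All circles lie at or right of 0, and for SREBF2, SLC2A1 and PFKFB3 the starved value exceeds the fed one.

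Glucose uptake and glycolysis genes were higher as well. Of 24 measured, 13 rose and 0 fell (0 at an unadjusted p of 0.05, and 0 with DESeq2), with a median of 0.19, and 5 were called higher in full medium. SLC2A1, the glucose transporter GLUT1, had 128, 124 and 132 CPM in RB1CC1KO EBSS and 72.6, 67.0 and 83.9 CPM in WT EBSS (0.78 ± 0.07, adjusted p = 6.68e-11). In full medium it had 134, 122 and 134 CPM in RB1CC1KO and 114, 101 and 107 CPM in WT, a smaller gap (difference between media 0.50 ± 0.10). The starved RB1CC1KO level thus lay near the fed RB1CC1KO level and above the fed WT level. The starved WT level lay below both fed levels. PFKFB3 and PFKFB4, which make the activator of phosphofructokinase, rose by 0.46 ± 0.07 and 1.03 ± 0.16, and hexokinase HK2 by 0.34 ± 0.06. PFKFB3 had 93.7, 84.2 and 95.4 CPM in RB1CC1KO EBSS and 68.1, 58.9 and 71.2 CPM in WT EBSS.

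Hypoxia-inducible factor targets gave 9 higher and 2 lower of 18, of which SLC2A1 is also in the glycolysis list. The 2 lower became 1 with DESeq2 and without any one EBSS library of the 2 lines but RB1CC1KO EBSS replicate 1. ANKRD37 (1.15 ± 0.17), the prolyl hydroxylase EGLN3 (0.99 ± 0.14) and the histone demethylase KDM3A (0.39 ± 0.06) led. KDM3A had 171, 185 and 176 CPM in RB1CC1KO EBSS and 135, 136 and 137 CPM in WT EBSS. Each of the 3 differed more in EBSS than in full medium by the test of the difference.

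The cell cycle lists moved in opposite directions. Replication genes gave 17 higher and 1 lower of 30 (median 0.17), and mitotic genes 2 higher and 12 lower of 30 (median -0.12). The 2 higher mitotic genes became 1 without WT EBSS replicate 3 or RB1CC1KO EBSS replicate 2, and the 1 lower replication gene was lost without any one of WT EBSS replicates 1 and 2, RB1CC1KO EBSS replicates 1 and 3 or ATG7KO EBSS replicate 3. In full medium the counts were 5 and 2 for replication and 1 and 3 for mitosis. MCM2, a subunit of the replicative helicase, had 776, 722 and 788 CPM in RB1CC1KO EBSS and 549, 529 and 592 CPM in WT EBSS (0.45 ± 0.06, adjusted p = 5.41e-07). CDC25A, the phosphatase that opens S phase, had 234, 234 and 240.2 CPM in RB1CC1KO EBSS and 169, 158 and 167 CPM in WT EBSS (0.52 ± 0.06). The sliding clamp PCNA rose by 0.36 ± 0.06 and the uracil glycosylase UNG by 0.44 ± 0.07. Cyclin B1 (CCNB1) had 234, 217 and 205 CPM in RB1CC1KO EBSS, against 305, 291 and 286 CPM in WT EBSS (-0.43 ± 0.06, adjusted p = 6.36e-07). CDC20, TPX2 and INCENP, which drive anaphase, the spindle and the chromosomal passenger complex, fell by 0.38, 0.29 and 0.31 on the log2 scale.

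CENPA, the histone H3 variant that marks centromeres, had 32.1, 33.0 and 31.9 CPM in RB1CC1KO EBSS and 52.1, 52.1 and 54.5 CPM in WT EBSS (-0.71 ± 0.07, adjusted p = 2.01e-09). In full medium the groups overlapped, with 30.5, 34.8 and 34.6 CPM in RB1CC1KO and 34.6, 33.3 and 33.8 CPM in WT. The ATG7KO EBSS libraries, at 45.2, 46.2 and 50.7 CPM, were also above the starved RB1CC1KO level. Of 41 centromere and kinetochore genes 10 fell and 4 rose, so the list as a whole did not follow CENPA (median -0.06). SPDL1 (-0.52) and CENPI (-0.45) were lower than in WT in EBSS and were not called in full medium. CENPB (-0.67) was also lower in full medium (-0.60). The 4 higher members became 2 without WT EBSS replicate 1.

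Cell cycle inhibitors gave 2 higher and 5 lower of 15. The 2 became 1 without WT EBSS replicate 3 or RB1CC1KO EBSS replicate 3, and the 5 became 2 without WT EBSS replicate 1 and 3 without any one of WT EBSS replicate 2 or the 3 RB1CC1KO EBSS libraries. CDKN1A (p21), a target of p53, had 135, 133 and 133 CPM in RB1CC1KO EBSS and 80.01, 83.0 and 87.2 CPM in WT EBSS (0.68 ± 0.08, adjusted p = 3.71e-08). In full medium the order was the opposite, with 103, 111 and 101 CPM in RB1CC1KO and 157, 166 and 146 CPM in WT (-0.58, adjusted p = 1.11e-06). The difference between media was 1.26 ± 0.11 (adjusted p = 9.67e-09). The p53 targets as a list split, 5 higher and 6 lower of 19, with AEN higher (0.45) and BTG2 (-0.91) and GDF15 (-0.84) lower. CDKN2B (-0.95) and RBL2 (-0.27) fell. BTG2, GDF15 and CDKN2B have 2 exons, which bears on a pattern given further on. CDKN2C (-0.23) lost its call without WT EBSS replicate 1 or RB1CC1KO EBSS replicate 2, at adjusted p-values of 0.0558 and 0.0533.

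Immediate early genes, which encode factors induced within minutes of a stimulus, gave 10 higher and 3 lower of 26. FOS had 486, 472 and 473 CPM in RB1CC1KO EBSS and 189, 194 and 241 CPM in WT EBSS (1.20 ± 0.09, adjusted p = 7.33e-10). In full medium it was near the floor in both lines, at 1.18, 0.901 and 1.15 CPM in RB1CC1KO and 1.46, 1.49 and 2.99 CPM in WT. Its partner JUN had 354, 326 and 374 CPM in RB1CC1KO EBSS and 161, 191 and 209 CPM in WT EBSS (0.91 ± 0.09). FOSB followed with 70.4, 72.9 and 80.7 CPM in RB1CC1KO EBSS and 27.5, 33.0 and 37.4 CPM in WT EBSS (1.19 ± 0.22, adjusted p = 0.00106). BTG2 ran the other way, at 26.6, 27.1 and 22.9 CPM in RB1CC1KO EBSS and 45.5, 48.4 and 50.5 CPM in WT EBSS. In full medium the 4 called members of this list were all lower. BTG2 and JUN have 2 exons and 1 exon, which bears on a pattern given further on.

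The ERK feedback genes, which damp MAP kinase signalling, split into 7 higher and 5 lower of 18. DUSP10, which acts on JNK and p38, had 18.5, 17.996 and 17.0 CPM in RB1CC1KO EBSS and 5.25, 4.82 and 5.57 CPM in WT EBSS (1.77 ± 0.14, adjusted p = 5.02e-12). DUSP8 had 101, 82.7 and 104 CPM in RB1CC1KO EBSS and 31.2, 32.1 and 46.8 CPM in WT EBSS (1.38 ± 0.14), and its difference between media was not called (adjusted p = 0.0537). DUSP1 (0.50) and the EGF receptor inhibitor ERRFI1 (0.90) rose too, and DUSP2 (-1.05) was the lowest. FOXO targets gave 5 higher and 3 lower of 21, among them FOXO3 (0.43), BCL6 (0.69) and the muscle ubiquitin ligase FBXO32 (0.70) higher and KLF15 (-0.86) lower. KLF15 has 3 exons, and 3 of the 5 lower ERK feedback genes have up to 3, against 0 of the higher ones. This bears on the same later pattern by exon number.

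The amino acid response split within ATF4 targets, 11 higher and 9 lower of 31. ATF3 had 385, 369 and 376 CPM in RB1CC1KO EBSS and 211, 228 and 227 CPM in WT EBSS (0.76 ± 0.07, adjusted p = 1.51e-10). SESN2, a leucine sensor that restrains mTORC1, had 437, 395 and 443 CPM in RB1CC1KO EBSS and 273, 277 and 313 CPM in WT EBSS (0.56 ± 0.07). CHAC1, which degrades glutathione, had 85.5, 72.8 and 87.8 CPM in RB1CC1KO EBSS and 162, 141 and 172 CPM in WT EBSS (-0.95 ± 0.09, adjusted p = 3.74e-09). The activin subunit gene INHBE fell by 1.21 on the log2 scale. These 4 were named for the smallest p, and no overlap between groups was seen for them, as for 41.4% of all genes tested. INHBE has 2 exons. Of the 9 lower members 3 have up to 3 exons, against 1 of the 11 higher, which bears on a pattern given further on.

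Amino acid transporters gave 4 higher and 5 lower of 20. SLC7A5, the leucine transporter LAT1, had 1564, 1355 and 1555 CPM in RB1CC1KO EBSS and 1129, 1038 and 1288 CPM in WT EBSS (0.37 ± 0.07). The neutral amino acid carrier SLC1A4 (-0.58), the lysosomal exporter SLC36A1 (-0.66) and the glutamate carrier SLC1A1 (-1.08) fell. Of 20 cytosolic tRNA synthetases 8 rose and 2 fell, with MARS1 (0.31) and VARS1 (0.29) higher and AARS1 (-0.39) and SARS1 (-0.36) lower. Without WT EBSS replicate 3 the 8 became 4. The unfolded protein response gave 2 higher and 2 lower of 24, with HERPUD1 at 0.50 ± 0.05 and XBP1 at -0.29 ± 0.05. Both shares were below those over all genes tested (14.8% higher and 16.9% lower). The 2 higher became 1, as DERL1 lost its call, without WT EBSS replicate 3, without RB1CC1KO EBSS replicate 2 and without the filter on low counts. Heat shock chaperones gave 2 higher (BAG3 0.29, DNAJA1 0.23) and 0 lower of 16 (0 at an unadjusted p of 0.05, and 0 with DESeq2), also below the share of higher calls over all genes. BAG3 lost its call without WT EBSS replicate 2, and DNAJA1 without WT EBSS replicate 3 or RB1CC1KO EBSS replicate 2.

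Few autophagy genes acting after the ULK1 complex changed. Of 32 such genes 2 rose and 4 fell, fewer than the background shares. The 2 became 1 without WT EBSS replicate 2 or RB1CC1KO EBSS replicate 1 and 4 with DESeq2, and the 4 lower became 2 without RB1CC1KO EBSS replicate 2. MAP1LC3B, an ATG8 protein that coats autophagosomes, rose by 0.24 ± 0.06, and the lipid transporter ATG2B fell by 0.26 on the log2 scale. Among 4 measured ULK1 complex genes RB1CC1 and ATG101 (0.24) were higher, though ATG101 lost its call without any one of WT EBSS replicate 2, RB1CC1KO EBSS replicate 1 or RB1CC1KO EBSS replicate 3. Receptors that carry cargo to the autophagosome gave 5 higher and 4 lower of 17, shares above the background, with 3 higher without RB1CC1KO EBSS replicate 3. RETREG1 (FAM134B), the receptor for endoplasmic reticulum sheets, had 5.16, 6.14 and 6.61 CPM in RB1CC1KO EBSS and 24.1, 22.4 and 18.5 CPM in WT EBSS (-1.86 ± 0.12, adjusted p = 2.51e-14), and was lower in full medium (-1.53). SQSTM1 (p62), whose protein is degraded by autophagy, had 256, 225 and 248.9 CPM of RNA in RB1CC1KO EBSS and 308, 297 and 317 CPM in WT EBSS (-0.34 ± 0.06). CALCOCO2 (-0.34) fell and RTN3 (0.26) rose.

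Lysosomal and V-ATPase genes gave 8 lower and 2 higher of 40, a share of lower calls near the background. The proton pump subunit ATP6V1C1 (-0.43) and the sialidase NEU1 (-0.43) were lower than in WT in EBSS and were not called in full medium. The cathepsin CTSZ (-0.33) was lower in both media. RRAGA, the Rag GTPase that brings mTORC1 to the lysosome, had 26.0, 23.8 and 23.2 CPM in RB1CC1KO EBSS and 37.2, 33.9 and 35.7 CPM in WT EBSS (-0.55 ± 0.08, adjusted p = 1.27e-06). RRAGA and CENPB have a single exon, which bears on the next pattern.

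Genes with few exons were lower in the starved RB1CC1KO-labelled line. Protein-coding genes outside the mitochondrial genome were grouped by the largest exon number of any transcript, a grouping chosen after the values had been seen and given with no test. For the 236 single-exon genes the median log2 fold change was -0.33, and 40.7% were called lower and 4.24% higher. The medians were -0.16 for 2 exons, -0.09 for 3, -0.03 for 4 to 5, 0.00 for 6 to 10, 0.04 for 11 to 20 and 0.09 for more than 20 exons, where 27.1% of 1861 genes were called higher. In full medium the single-exon median was -0.05 and that of more than 20 exons 0.04. Among genes of at least 10 CPM on average the single-exon median was -0.36, and under the other scalings and with single libraries left out it lay between -0.42 and -0.31.

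By library, the median level of single-exon genes relative to the mean of WT EBSS was -0.25, -0.36 and -0.27 (log2) in RB1CC1KO EBSS. It was -0.02, -0.04 and 0.05 in WT EBSS, with no overlap. The ATG7KO EBSS libraries lay between, at -0.10, -0.06 and -0.03. Fed libraries were higher, at 0.41, 0.28 and 0.38 in RB1CC1KO and 0.47, 0.42 and 0.47 in WT. Single-exon genes thus stood lower in EBSS than in full medium in both lines, and further so in RB1CC1KO. Genes named as higher that have more than 20 exons include MARS1, VARS1, KDM3A, MYBBP1A, COL18A1 and COL4A6. In that exon group 27.1% were called higher, against 16.4% of all protein-coding genes grouped. The part of exon number in any single gene's change was not tested.

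**Figure D5:**
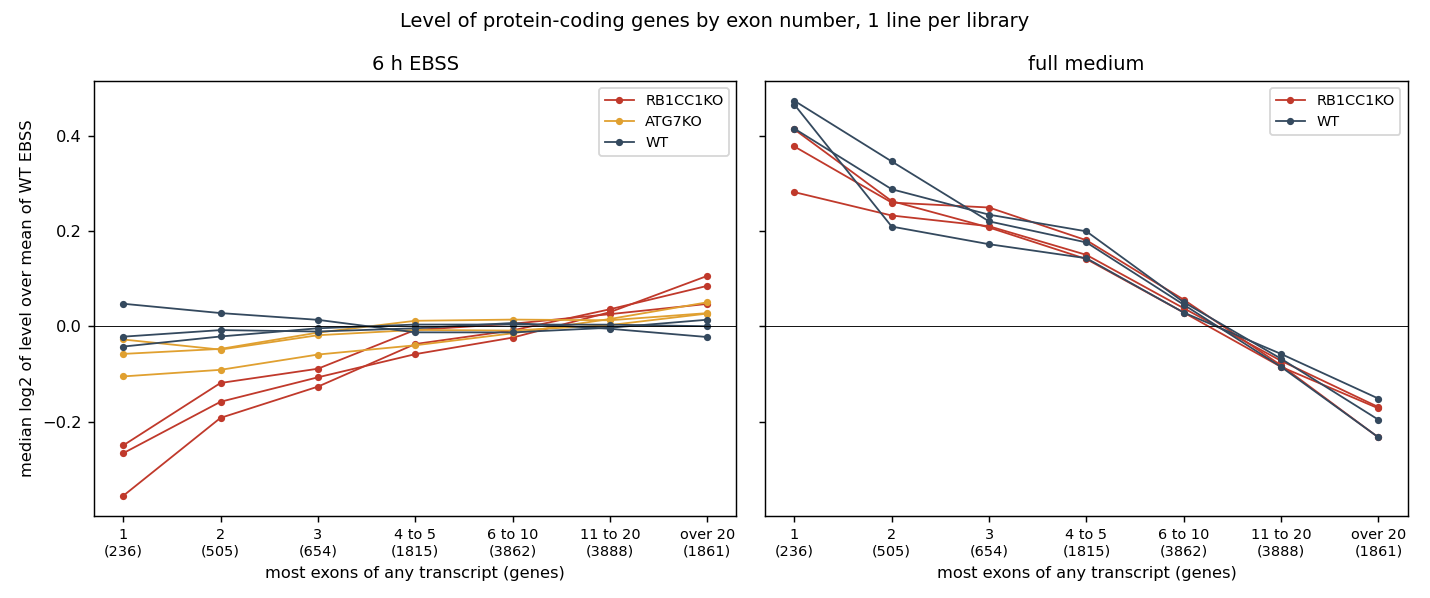
Median log2 of the level over the mean of the WT EBSS libraries for protein-coding genes grouped by exon number, 1 line per library, in EBSS (left) and in full medium (right). In EBSS the RB1CC1KO lines lie between -0.36 and -0.25 at 1 exon and above 0 beyond 20 exons. The WT lines are set against their own mean and so lie near 0. Beyond 20 exons the ATG7KO lines are above 0 too, at 0.05, 0.03 and 0.03, against 0.05, 0.09 and 0.11 in RB1CC1KO.

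Genes of the Wnt pathway include 9 with up to 3 exons. Of 26 genes 14 fell and 5 rose, and the 5 became 3 without RB1CC1KO EBSS replicate 3. All 9 members with up to 3 exons fell, SP5 and 8 Frizzled receptors, whereas the 17 with more exons gave 5 lower and 5 higher (median 0.20). FZD7 had 55.3, 47.6 and 52.5 CPM in RB1CC1KO EBSS and 96.6, 90.0 and 96.7 CPM in WT EBSS (-0.87 ± 0.07, adjusted p = 4.16e-12). FZD5 had 55.8, 48.9 and 60.2 CPM in RB1CC1KO EBSS and 94.6, 96.1 and 107 CPM in WT EBSS (-0.86 ± 0.07), and FZD2 fell by 1.06 on the log2 scale. FZD10 was different in kind, with 0 reads in RB1CC1KO EBSS and at least 55.9-fold more in WT EBSS, and near 0 in fed RB1CC1KO as well.

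BMP and TGF-beta genes gave 10 lower and 3 higher of 23 in EBSS, and the same counts in full medium. Besides BMP7, BMP2 fell by 2.65 on the log2 scale. The receptor TGFBR2 had 7.77, 8.81 and 7.52 CPM in RB1CC1KO EBSS and 17.2, 15.2 and 17.7 CPM in WT EBSS (-1.04 ± 0.11). TGFBR2 was further apart in EBSS than in full medium (difference -0.78 ± 0.14). Collagens gave 6 higher and 3 lower of 13, and the 6 became 3 without WT EBSS replicate 2. COL18A1 (0.77) and COL4A6 (0.34) of basement membranes were higher, and COL5A2 (-1.80) of fibrils was lower. Targets of YAP and SRF, the factors that follow cell tension, gave 8 lower of 18 and 0 higher (2 at an unadjusted p of 0.05, and 0 with DESeq2), led by smooth muscle actin ACTA2 (-1.19), AXL (-1.40), F3 (-0.51) and TPM1 (-0.32). In full medium 7 were lower and 1 higher.

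Lineage markers gave counts that differed by lineage. Of 11 fibroblast and mesenchymal markers 6 fell and 2 rose. PDGFRA had 2.61, 2.16 and 1.69 CPM in RB1CC1KO EBSS and 19.3, 20.2 and 20.6 CPM in WT EBSS (-3.20 ± 0.14). SPARC (-0.94) and THY1 (-5.67, with 2 reads or fewer per RB1CC1KO library) were lower and fibronectin FN1 (0.43) higher. Of 7 epithelial markers 3 fell and 0 rose (0 at an unadjusted p of 0.05, and 0 with DESeq2). The splicing factor ESRP1 had 0.474, 0.381 and 0.211 CPM in RB1CC1KO EBSS and 14.0, 14.6 and 15.0 CPM in WT EBSS, EPCAM gave -3.20 and KRT18 -0.22. THY1 and EPCAM were near absent in ATG7KO EBSS too, with 3 reads each over the group. KRT18 lost its call without any one of 3 libraries, WT EBSS replicate 2 and RB1CC1KO EBSS replicates 2 and 3.

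Neuronal markers were low, and 7 of the 15 listed were measured. Of the 7, MAP2 rose by 1.03 and SNAP25 by 2.22, and 0 fell (0 at an unadjusted p of 0.05, and 0 with DESeq2). Over all genes tested 14.8% were called higher. SNAP25 had 47 reads in RB1CC1KO EBSS, 8 in WT EBSS and 6 in ATG7KO EBSS, so it could hardly have been called lower. The summed level of the markers was 36.2 to 38.9 CPM in RB1CC1KO EBSS and 21.4 to 21.8 CPM in WT EBSS. Haematopoietic markers CD34, GATA1, HBG1 and MPO had 0 reads in all 6 libraries, CD44 fell (-2.70) and CD38 rose (1.55), of 9 measured. CD44 was also low in ATG7KO EBSS, with 45 reads against 44 in RB1CC1KO EBSS and 238 in WT EBSS. None of the 9 endothelial markers reached the level for testing, and 5, among them PECAM1, had 0 reads. In full medium PDGFRA (-2.85), ESRP1 (-6.82) and MAP2 (0.91) were called the same way, whereas FN1 (-0.02), CD38 (0.24) and KRT18 (-0.14) were not called. Their part in other results was not tested.

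Genes of ribosome production were modestly higher. Of 31 ribosome biogenesis genes 13 rose and 1 fell, with MRTO4 (0.32), RRP9 (0.37) and MYBBP1A (0.35) higher and NIP7 (-0.36) lower (3 lower without WT EBSS replicate 3), and 1 was called in full medium, higher. Of 50 ribosomal protein genes 12 rose and 0 fell (0 at an unadjusted p of 0.05, and 0 with DESeq2), led by RPLP2 (0.30), RPS7 (0.35), RPS9 (0.28) and RPLP0 (0.19). That count became 6 without WT EBSS replicate 3 or RB1CC1KO EBSS replicate 1, and reads of their many processed copies may be shared. In full medium 10 of the 50 were higher and 0 lower, with a median of 0.14 in both media. The difference between media was called for 0 of them. Nuclear-encoded respiratory chain genes gave 4 higher, COX5A (0.23), ATP5F1B (0.21), NDUFV1 (0.23) and COX6A1 (0.26), and 0 lower of 40 (1 at an unadjusted p of 0.05, and 0 with DESeq2). The share of higher calls was below the 14.8% over all genes tested. In full medium 5 were higher and 0 lower, with a median of 0.11 against 0.10 in EBSS. The difference between media was called for 0 of these. NDUFV1 lost its call without any one of WT EBSS replicate 2 or RB1CC1KO EBSS replicates 1 and 3, and COX6A1 without any EBSS library of the 2 lines but WT EBSS replicate 1 and RB1CC1KO EBSS replicate 3. Without RB1CC1KO EBSS replicate 1 the 4 became 2. None of the 13 mitochondrial mRNAs was called by edgeR or DESeq2 (1 lower at an unadjusted p of 0.05), and their summed level ranged widely, from 10371 to 17952 CPM in RB1CC1KO EBSS and 14731 to 18385 CPM in WT EBSS.

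Antioxidant targets of NRF2 split, 5 higher and 4 lower of 20, and the 5 became 3 without WT EBSS replicate 2 or RB1CC1KO EBSS replicate 1. Haem oxygenase HMOX1 (-0.996), the haem transporter SLC48A1 (-0.86) and NFE2L2 itself (-0.37) were lower, and PGD of the pentose phosphate pathway (0.27) higher. Innate sensing genes gave 5 lower and 1 higher of 20, and the 1 was lost without WT EBSS replicate 2 or 3. CGAS, the sensor of cytosolic DNA, had 1.42, 1.65 and 1.90 CPM in RB1CC1KO EBSS and 7.66, 7.70 and 6.34 CPM in WT EBSS (-2.13 ± 0.20, adjusted p = 1.65e-10), against 17.96, 17.7 and 19.5 CPM in ATG7KO EBSS. OAS2 (-1.59), IFIH1 (-1.09) and IRF1 (-0.47) each lost their call without at least 1 single library. The 5 became 2 without WT EBSS replicate 2, and 3 without any one of WT EBSS replicate 1 or RB1CC1KO EBSS replicates 1 and 3. NF-kappaB targets gave 3 and 3 of 12, with LTA (1.27) and TNFAIP3 (0.99) higher and ICAM1 (-2.16, or -3.26 without RB1CC1KO EBSS replicate 1) and NFKBIE (-0.58) lower.

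Of the 1238 genes whose starved and fed differences differed, 1027 were also called in EBSS. Besides PLEKHA6, the largest gains of the difference in EBSS were FOSB (2.62), LSMEM1 (2.04), FOS (2.02), HCLS1 (1.95), KCTD8 (1.64) and STXBP2 (1.58). For FOSB, LSMEM1 and FOS the starved fold changes were smaller, at 1.19, 1.06 and 1.20. The rest came from lower fed values on few reads, none called. These were -1.43 for FOSB (80 reads in RB1CC1KO, 192 in WT), -0.98 for LSMEM1 (11 and 20) and -0.82 for FOS (55 and 88). HCLS1 and STXBP2 were lower in RB1CC1KO in both media, and less so in EBSS. HCLS1 had 1.13, 1.35 and 0.914 CPM in RB1CC1KO EBSS and 26.1, 24.8 and 23.4 CPM in WT EBSS, against 0.413, 0.338 and 0.364 CPM in RB1CC1KO and 30.3, 29.9 and 32.8 CPM in WT in full medium.

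In the other direction stood MYH15 (-2.14), whose starved fold change was not called (0.33, adjusted p = 0.0556), RAB42 (-1.96), PARS2 (-1.92), MED7 (-1.73), CLIP3 (-1.67) and BLOC1S3 (-1.66). PARS2, the mitochondrial prolyl-tRNA synthetase, had 0.534, 0.720 and 0.633 CPM in RB1CC1KO EBSS and 2.34, 2.44 and 2.31 CPM in WT EBSS. In full medium it had 15.7, 14.0 and 15.1 CPM in RB1CC1KO and 15.3, 14.8 and 13.1 CPM in WT, which overlap. MED7, a subunit of the Mediator complex, had 0.356, 0.508 and 0.703 CPM in RB1CC1KO EBSS and 1.92, 1.38 and 1.54 CPM in WT EBSS, with 8.49, 9.51 and 9.22 CPM in RB1CC1KO and 7.89, 7.94 and 9.69 CPM in WT in full medium. Both were thus low in EBSS in either line, and lower in RB1CC1KO. RAB42, PARS2, MED7 and BLOC1S3 each have 2 exons at most.

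Against the ATG7KO-labelled line, starved in the same way, 4445 genes were called (29.3%), 2072 higher (13.7%) and 2373 lower (15.6%). These values share the RB1CC1KO EBSS libraries with the comparison to WT and are no second support for it. Immediate early genes gave 21 higher and 1 lower of 26, and the 16 called of 25 cholesterol genes were all higher. SREBF2 exceeded ATG7KO EBSS by 0.35, SLC2A1 by 0.64, FOS by 0.94 and DUSP10 by 1.20, and CENPA was lower by -0.54, all called. The single-exon median was -0.29 against ATG7KO EBSS. For GABRA5 (1.44), CGAS (-3.46) and ALDH1A2 (4.49) the 2 knockout-labelled lines also differed, whereas RAB36 (0.18) and ZNF329 (-0.17) showed no called difference between them.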

How the data were processed

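Polyadenylated RNA of 18 HAP1 libraries was sequenced as single-end reads from a directional kit, per the labels' protocols. The authors deposited counts, 1 table of whole-number reads per gene for each library with 63677 identifiers and 5 summary lines, which were left out. HTSeq 0.6.1p1, STAR 2.4.2a, DESeq2, edgeR and Picard were used, per the submitters' processing notes. Neither strand setting nor annotation release is given in the sources used here, so antisense and near-identical genes are uncertain. Gene names and exon numbers came from tables of a later build and matched 52526 identifiers.

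Counts were fitted in edgeR 4.0.16 (R 4.3.3) with TMM scaling, filterByExpr over 6 groups (15179 genes) and 1 robust quasi-likelihood model of all 18 libraries. Adjusted p-values are Benjamini-Hochberg values of its F test, called below 0.05, and a standard error is the log2 fold change over the square root of F. It is unreliable where the change is near 0. On simulated counts 89.6% of 67 genes changed 2-fold and 83.6% of 67 changed 1.5-fold were recovered in the starved comparison (14989 genes), where 16 of 197 calls were false. P-values measure spread between libraries of 1 line. Bounds and intervals (95%) cover counting error only.

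The members and the 40 gene lists (920 of 922 entries matched) were chosen with earlier results of these data known. Named genes were the targets and 4 given markers, the 10 largest called changes per direction in EBSS and the 6 largest differences between media (protein-coding, log2 CPM of at least 1, no overlap of groups), and up to 4 called members with the smallest p per list. Alternatives were DESeq2 1.42.0, upper-quartile scaling, no filter, only the compared groups, a replicate block and each library left out. Exon groups, list counts without few-exon genes and a fit without ATG7KO EBSS replicate 3 were added after seeing the data. Single-gene values of a few list members are not reported here, though the list counts include them.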

Additional observations from a re-analysis of the deposited data

Results flagged for a closer look

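Of the genes named by the rule, those below differed between EBSS and full medium in the RB1CC1KO over WT fold change, by edgeR's test of the difference itself. Each value is the log2 EBSS response of RB1CC1KO minus that of WT, so a positive value means a fold change of RB1CC1KO over WT that is higher in EBSS than in full medium. The comparison uses the 6 starved and 6 fed libraries of the 2 lines, and adjusted p-values were below 0.05 in each. Among the target, the given markers and the largest starved changes these were RB1CC1 (-0.33), SLC2A1 (0.50), SREBF2 (0.48), CENPA (-0.69), TCEAL9 (-0.70) and PLEKHA6 (2.75). The genes with the largest such differences were FOSB (2.62), LSMEM1 (2.04), FOS (2.02), HCLS1 (1.95), KCTD8 (1.64), STXBP2 (1.58), MYH15 (-2.14), RAB42 (-1.96), PARS2 (-1.92), MED7 (-1.73), CLIP3 (-1.67) and BLOC1S3 (-1.66). In glucose and hypoxia genes they were PFKFB4 (0.87), PFKFB3 (0.48), ANKRD37 (1.03), EGLN3 (0.58) and KDM3A (0.30). In lipid genes they were SCD (0.32) and SREBF1 (0.64). In mitotic and centromere genes they were SPDL1 (-0.52), CENPI (-0.47), CCNB1 (-0.46), TPX2 (-0.28) and INCENP (-0.31). In replication genes and cell cycle inhibitors they were CDC25A (0.35), MCM2 (0.41), UNG (0.40) and CDKN1A (1.26). In the amino acid and protein stress lists they were ATF3 (0.65), SESN2 (0.69), SARS1 (-0.37), MARS1 (0.39), SLC36A1 (-0.61), SLC7A5 (0.51), HERPUD1 (0.48) and BAG3 (0.44). In autophagy receptors and lysosomal genes they were CALCOCO2 (-0.30), RRAGA (-0.57), ATP6V1C1 (-0.54) and NEU1 (-0.37). In early genes, phosphatases, FOXO and p53 targets they were BTG2 (-1.01), JUN (0.94), DUSP10 (1.21), BCL6 (0.93), KLF15 (-0.59) and AEN (0.36). In ribosome biogenesis they were MRTO4 (0.29), RRP9 (0.40) and MYBBP1A (0.53). In redox, innate sensing and NF-kappaB genes they were SLC48A1 (-0.65), CGAS (-0.96) and NFKBIE (-0.77). In surface, signalling and matrix genes they were F3 (-0.60), STRA6 (0.68), FZD7 (-0.63), FZD5 (-0.84), FZD2 (-0.72), TGFBR2 (-0.78), COL18A1 (0.39) and FN1 (0.45). Several lost their call under an alternative, most often CALCOCO2, TCEAL9, INCENP and KLF15. No explanation was weighed for them.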

How the results depend on the processing

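Genes called between RB1CC1KO EBSS and WT EBSS numbered 4028 to 4513 when 1 of the 6 compared libraries was left out, 4669 with DESeq2, 4739 with upper-quartile scaling, 4625 without the filter and 4196 with only the compared groups. The difference between media was less stable. It had 1238 calls, but 788 without WT EBSS replicate 1 and 824 without RB1CC1KO full medium replicate 2, with a range from 788 to 1588 over single libraries left out. The cause was not tested. No result changed sign where it was called. Replicate numbers are shared between groups. Same-numbered RB1CC1KO EBSS and WT EBSS libraries deviated together with correlations of 0.00, 0.17 and 0.14, and those in full medium with 0.19, 0.11 and -0.04. Same-numbered EBSS and full medium libraries gave 0.08, 0.33 and 0.01 in RB1CC1KO and -0.05, 0.16 and -0.08 in WT. These mixed values do not settle whether the numbers are pairs, and the main model did not take them as such. With the replicate block 5144 genes were called in EBSS, 2933 in full medium, 1581 for the difference and 4705 against ATG7KO EBSS. Of named starved fold changes, 35 values over the alternatives lost their call and 3 gained one. Of differences between media, 113 such values lost their call and 32 gained one. Without ATG7KO EBSS replicate 3, the shallow library, the starved comparison had 4782 calls. The fold changes of CGREF1 (-9.37 without RB1CC1KO EBSS replicate 1 and -7.03 without replicate 2) and THY1 (-6.30 without RB1CC1KO EBSS replicate 2) rest on a few reads. Depth limits the near-absent genes to bounds and ratios.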
